A study of Mus musculus with 6 samples.

Results

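The GIMAP family (GTPases of immunity-associated proteins) was measured by RNA-seq in Th17 cells of WT and RORγt N275D knockin mice. Its members were the rows of the expression table with the symbols *Gimap1*, *Gimap3*, *Gimap4*, *Gimap5*, *Gimap6*, *Gimap7*, *Gimap8* and *Gimap9*, which are 8 of the 16244 genes listed. No other row had a symbol beginning with Gimap. The methods give C57BL/6 for both genotypes, and the list of resources gives the WT stock as C57BL/6NJ. No substrain is stated where the knockin mice are described, so any substrain difference and the allele cannot be told apart. Whether the N275D donors of these libraries carried 1 or 2 mutant alleles is not given in the sources used here. Naive CD4+ T cells from spleen were stimulated for 3 days with antibodies to CD3 and CD28 under pathogenic Th17 conditions, named in the series description as IL-6, IL-1β and IL-23. The methods describe IL-1β and IL-23 as additions to a conventional medium that also held TGF-β and antibodies to IL-4 and IFN-γ. There were 3 libraries of each genotype. The methods give 1 age range and both sexes for all experiments, not an age or sex per library. WT mice were bought from a supplier and the knockin mice came from another institution, so the origin of the mice and the allele cannot be told apart. The labels do not say that libraries came from separate mice or cultures, so the p-values measure the spread between libraries, which may be technical.

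GIMAP proteins are small GTPases related to septins and dynamins, are found mainly in lymphocytes, and sit on the membranes of organelles such as the endoplasmic reticulum, mitochondria and lysosomes. They are known for their part in T cell survival: loss of *Gimap5* leaves rats and mice short of T cells, and *Gimap1* is needed for mature lymphocytes to persist. Their genes lie together as a cluster, which makes it possible to ask whether neighbouring genes of 1 family moved together between the genotypes.

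In GRCm38 (mm10) the 8 members lie on chromosome 6 from 48647186 to 48770851, a span of 123.7 kb. The order along the chromosome is *Gimap8*, *Gimap9*, *Gimap4*, *Gimap6*, *Gimap7*, *Gimap1*, *Gimap5* and *Gimap3*, with 6 genes on the plus strand and 2, *Gimap6* and *Gimap3*, on the minus strand. The RefSeq promoter windows, each from 250 bases before to 50 bases after an annotated start, were searched on both strands for the ROR response word AGGTCA, the hypoxia response cores ACGTG and GCGTG, the RUNX word TGTGGT and the FOXO word GTAAACA. The windows of the member that rose most (*Gimap7*), the member that fell most (*Gimap5*) and the member that held the ROR word (*Gimap4*), which also fell, are shown. They are the plus-strand intervals chr6:48718371-48718670, chr6:48745947-48746246 and chr6:48684328-48684627 of GRCm38.p6, written 5′ to 3′ with the matched words in capitals. A word found on the opposite strand is printed as its reverse complement.
Gimap7 promoter: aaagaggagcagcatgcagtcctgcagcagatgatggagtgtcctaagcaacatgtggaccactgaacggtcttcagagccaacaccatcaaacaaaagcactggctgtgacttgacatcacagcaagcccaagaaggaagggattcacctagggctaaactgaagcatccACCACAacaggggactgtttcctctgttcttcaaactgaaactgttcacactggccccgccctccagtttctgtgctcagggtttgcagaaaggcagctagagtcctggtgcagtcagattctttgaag
Gimap5 promoter: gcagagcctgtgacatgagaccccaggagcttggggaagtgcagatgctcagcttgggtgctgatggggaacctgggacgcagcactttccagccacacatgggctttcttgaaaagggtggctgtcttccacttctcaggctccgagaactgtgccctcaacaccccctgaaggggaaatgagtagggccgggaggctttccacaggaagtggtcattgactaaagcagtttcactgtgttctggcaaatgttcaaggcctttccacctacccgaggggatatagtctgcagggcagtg
Gimap4 promoter: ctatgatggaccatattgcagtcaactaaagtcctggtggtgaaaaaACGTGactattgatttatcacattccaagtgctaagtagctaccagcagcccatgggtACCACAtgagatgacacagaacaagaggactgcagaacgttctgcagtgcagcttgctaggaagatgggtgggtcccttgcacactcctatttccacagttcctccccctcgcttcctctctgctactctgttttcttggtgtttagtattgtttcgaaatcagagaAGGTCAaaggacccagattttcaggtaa

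The *Gimap7* window held the RUNX word on the opposite strand, with its first base at -79 from the start site. The *Gimap5* window held none of the 5 words. The *Gimap4* window held the hypoxia core ACGTG at -203, the RUNX word on the opposite strand at -145 and the ROR word at 23. Among the other members, the *Gimap9* window held GCGTG on the opposite strand, the *Gimap1* window held GCGTG and the RUNX word, and the *Gimap3* window held the FOXO word. The windows of *Gimap6* and *Gimap8* held none. Of 32851 promoter windows of the same length in the mouse table, 16.3% held AGGTCA, 19.6% ACGTG, 32.4% GCGTG, 16.8% TGTGGT and 3.65% GTAAACA. These are matches of letters and not sites of binding.

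*Gimap3* and *Gimap5* are close copies, and this bears on how far their reads can be told apart. Their coding sequences were identical at 809 of 895 aligned bases (90.4%), with a longest identical run of 140 bases. Identity over the longer of 2 coding sequences was 87.6% for this pair and 65.1% for the next, *Gimap7* and *Gimap9*. The first 120 bases of their first aligned stretch of that length, coding bases 54 to 173 of *Gimap3* and 66 to 185 of *Gimap5*, are shown with the 9 differing bases in capitals.
Gimap3 coding: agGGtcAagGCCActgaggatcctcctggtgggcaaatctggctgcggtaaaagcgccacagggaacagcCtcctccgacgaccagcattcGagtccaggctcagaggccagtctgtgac
Gimap5 coding: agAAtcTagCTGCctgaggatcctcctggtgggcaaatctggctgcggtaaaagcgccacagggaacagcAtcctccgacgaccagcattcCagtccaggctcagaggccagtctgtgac

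Of the words of 50 bases in the *Gimap3* transcript, 9.9% also occur in *Gimap5*, and 9.98% of the words of *Gimap5* occur in *Gimap3*, with 15.1% of the *Gimap5* words shared with any gene. *Gimap1* shares 10.3% of its words and *Gimap7* 2.62% with Gm28053, an annotated readthrough gene that spans *Gimap7*, *Gimap1* and *Gimap5* and is not a row of the table. For *Gimap4*, *Gimap6*, *Gimap8* and *Gimap9* no word is shared with another gene. *Gimap1* is also overlapped by the antisense gene Gimap1os, and *Gimap9* by the antisense noncoding gene Gm46958. The libraries are described as strand-specific, but the strand setting of the counting is not given in the sources used here, so reads of these partners cannot be told apart from those of the members. According to the methods the reads were paired-end and, before trimming, longer than these words and than the identical coding run of 140 bases. The shares of words may therefore overstate how many reads cannot be assigned. Values of *Gimap1*, *Gimap3*, *Gimap5* and *Gimap7* are uncertain to the extent of these shared stretches.

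The libraries held between 17659035 and 18510878 reads on genes. Within a genotype, pairs of libraries differed by 1.38 to 3.89 times what counting alone gives (the median chi-square over 9584 genes), and both pairs with WT replicate 3 stood highest, at 3.79 and 3.89. Without that library the same members were called in the same directions. T cell markers summed to 17120.1 to 17711 normalized reads in WT and 15971 to 16155 in N275D libraries, without overlap. Among the 5 markers, *Cd4* (-0.27) and *Cd3e* (-0.22) were called lower and *Cd28* (0.15) higher. *Cd4* held the largest part of the sum, with 9143 ± 331 normalized reads in WT and 7591 ± 26.1 in N275D cells (SD, n = 3 each). Of the Th17 markers, the cytokine gene *Il17f* had 32635 ± 1965 normalized reads in WT and 39026 ± 702 in N275D cells (SD, n = 3 each), and the chemokine receptor gene *Ccr6* had 2649 ± 23.6 and 3450.3 ± 71.9. B cell markers summed to 150 to 160.1 normalized reads in WT and 214 to 273 in N275D libraries, with *Ms4a1* at most 12 in any library. Among them, 3 of 4 tested markers were called higher, where 24.7% of all genes tested were. Of the myeloid, natural killer and endothelial markers, *Csf1r*, *Lyz2*, *Klrb1c*, *Kdr* and *Tek* were also at most 12. CD8 T and natural killer markers summed to 182 to 195 normalized reads in WT and 251 to 281 in N275D libraries. Among them, *Cd8b1* (0.58) and *Eomes* (0.69) were called higher. *Cd8a* pointed the other way and was not called (-0.22, from 32.6 ± 6.70 to 27.6 ± 2.67, SD, n = 3 each). Endothelial markers, nearly all of them reads of *Pecam1*, summed to 281 to 352 in WT and 396 to 447 in N275D libraries. Myeloid markers summed to 81.8 to 92.8 and 82.0 to 106, among which *Adgre1* was lower (22.6 ± 3.22 and 6.64 ± 3.05, SD, n = 3 each). The part of these marker differences in the results below was not tested.

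The family did not move as a block: in N275D over WT Th17 cells 3 members rose, 4 fell and 1 was not called. The call was an adjusted p under 0.05 from limma on log2(normalized reads + 1), with the Benjamini-Hochberg adjustment over 11908 genes whose mean was 10 or more normalized reads, a minimum that all 8 members passed. *Gimap6*, *Gimap7* and *Gimap9* were higher, where 24.7% of all genes tested were called higher. *Gimap1*, *Gimap3*, *Gimap4* and *Gimap5* were lower, where 26.1% of all genes were. Against these background shares, the counts describe the members and are not a feature particular to the family. None of the 8 reached 2-fold, where 3.59% of all genes did. The 3 N275D libraries lay wholly above the WT libraries for 3 members and wholly below them for 4, against 28.1% and 29.6% of all genes. For a single gene, 3 libraries against 3 allow no two-sided exact permutation p below 0.1, and each of these 7 members reached that value. In bulk RNA, fewer cells with a transcript and less of it per cell cannot be told apart.

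**Figure D1:**
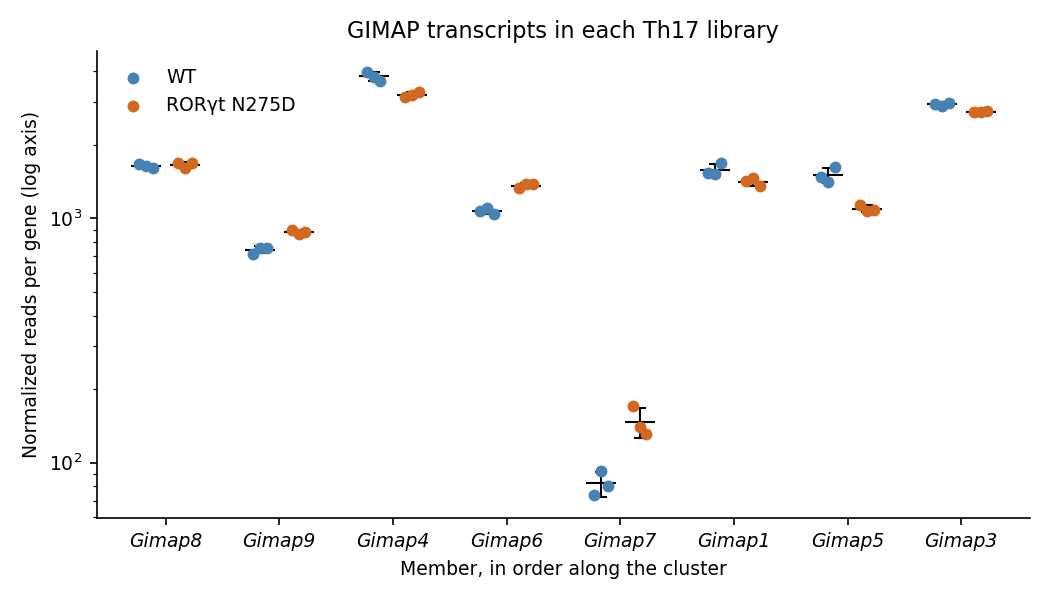
Normalized reads of the 8 GIMAP genes (vertical log axis) in each of 3 WT and 3 RORγt N275D Th17 libraries (points), in order along the cluster, with the mean as a horizontal bar and 1 SD as error bars. The genotypes are apart for 7 genes and overlap for *Gimap8*, and *Gimap7* has the fewest reads in every library, before any correction for length.

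Among the members tied to lymphocyte survival, *Gimap5* fell most. *Gimap5* encodes a protein of lysosomal and multivesicular membranes that is required for the survival of peripheral T cells. It had 1473, 1409 and 1622 normalized reads in the WT libraries and 1135, 1070.4 and 1078 in the N275D libraries. Every N275D library was below every WT library, and the WT libraries were the more scattered. The means were 1501 ± 109 and 1095 ± 35.2 (SD, n = 3 each), so that the mean fell by 27.1%. The log2 fold change was -0.45 (standard error 0.05, 95% interval -0.57 to -0.34, adjusted p = 4.06e-06 from limma).

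*Gimap1*, which mature T and B cells need in order to persist, had 1534, 1515 and 1679 normalized reads in WT and 1418, 1459 and 1355 in N275D libraries. The genotypes were apart, but the highest N275D and the lowest WT library were close. The log2 fold change of *Gimap1* was -0.16 (standard error 0.05, 95% interval -0.27 to -0.05, adjusted p = 0.0143 from limma). The call was lost without N275D replicate 3 (-0.13, adjusted p = 0.0799), under quantile normalization (-0.11, adjusted p = 0.0820) and in eBayes without a trend (adjusted p = 0.0645).

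*Gimap3* is the close copy of *Gimap5*, is expressed in mice and has become a pseudogene in humans. It had 2951, 2883 and 2971 normalized reads in WT and 2714, 2724 and 2752 in N275D libraries. The libraries of each genotype were tightly grouped and apart. The log2 fold change of *Gimap3* was -0.10 (standard error 0.04, 95% interval -0.18 to -0.03, adjusted p = 0.0285 from limma), the smallest change among the 7 called members. It was called in 7 of 14 alternatives, and the adjusted p was 0.0741 without WT replicate 1, 0.0910 without N275D replicate 1, 0.0918 without N275D replicate 2, 0.0607 without N275D replicate 3, 0.0598 in eBayes without a trend and 0.409 under quantile normalization, where the libraries overlapped.

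*Gimap4*, whose product speeds the death of T cells that have entered apoptosis, had the most reads and the highest level per length. It had 3973, 3799.9 and 3660 normalized reads in WT libraries. In N275D libraries it had 3151, 3183 and 3289.6, each below the lowest WT library. The means were 3811 ± 157 and 3208 ± 72.7 (SD, n = 3 each). The difference was -0.25 on the log2 scale (standard error 0.04, 95% interval -0.33 to -0.16, adjusted p = 9.81e-05 from limma).

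*Gimap6*, whose product binds the ATG8 protein GABARAPL2 and takes part in autophagy, moved the other way. It had 1073, 1105 and 1044 normalized reads in WT and 1326, 1379 and 1382 in N275D libraries. The genotypes were well apart and each was narrow. The means were 1074 ± 30.2 and 1362 ± 31.6 (SD, n = 3 each), and the log2 fold change was 0.34 (standard error 0.05, 95% interval 0.24 to 0.44, adjusted p = 1.46e-05 from limma).

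*Gimap7*, which encodes a GTPase able to stimulate GTP hydrolysis by other members of the family, had the fewest reads and the lowest level per length, and changed most. It had 73.7, 92.8 and 80.5 normalized reads in WT and 171, 139 and 131 in N275D libraries. All N275D libraries were above all WT libraries, although the N275D libraries varied more, relative to their mean, than those of any other member. The means were 82.3 ± 9.69 and 147 ± 20.8 (SD, n = 3 each). The difference was 0.83 on the log2 scale (standard error 0.12, 95% interval 0.56 to 1.09, adjusted p = 4.55e-05 from limma). This change was larger in size than that of 94.7% of the genes tested, and *Gimap5* came next at 84.5%. It rests on 73 to 171 reads a library, which by counting alone give a coefficient of variation of 11.0% in WT and 8.23% in N275D cells, against the 11.8% and 14.1% observed.

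*Gimap9* had 715, 756 and 758 normalized reads in WT and 898, 865 and 877 in N275D libraries. The genotypes were apart. The means were 743 ± 24.5 and 880.1 ± 17.1 (SD, n = 3 each), and the log2 fold change was 0.24 (standard error 0.05, 95% interval 0.14 to 0.35, adjusted p = 0.000857 from limma).

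*Gimap8*, the member with more than 1 GTPase domain, had 1668, 1636 and 1608 normalized reads in WT and 1685, 1603 and 1686 in N275D libraries. The lowest library of all was of the N275D genotype, and the ranges overlapped. The difference on the log2 scale was 0.02 (standard error 0.04, exact permutation p = 0.6, limma adjusted p = 0.754), and the 95% interval ran from -0.07 to 0.11, so that a change of the size seen in *Gimap9* or *Gimap4* lay outside it.

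**Figure D2:**
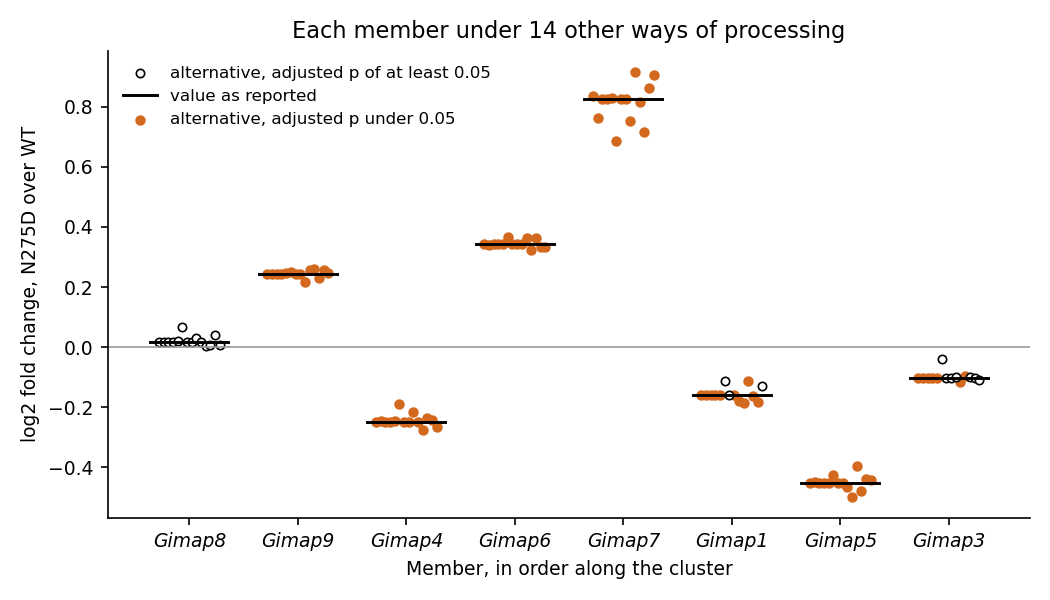
Log2 fold change of N275D over WT (vertical axis) for each member as reported (horizontal line) and under 14 alternatives (points, filled where the adjusted p was under 0.05). *Gimap4*, *Gimap5*, *Gimap6*, *Gimap7* and *Gimap9* stay called on 1 side of 0 throughout, while *Gimap1* and *Gimap3* each have open points.

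To rank the members by level, reads were divided by length, as normalized reads per kilobase of annotated exons, merged over the transcripts of a gene. Merged exons exceeded the coding transcript used above most for *Gimap6* (3192 against 1594 bases), *Gimap8* (3700 against 2579) and *Gimap3* (2577 against 1968). An order by transcript length was not computed, so the order given here holds for merged exons only. On this scale *Gimap4* stood first in both genotypes, at 2074 ± 85.3 in WT and 1746 ± 39.6 in N275D cells (SD, n = 3 each). Its mean over the 6 libraries exceeded that of 94.96% of the genes tested. *Gimap3* and *Gimap1* followed, at 1139 ± 18.0 and 1053 ± 59.7 in WT cells, and they were the 1 neighbouring pair in the WT order whose libraries overlapped. *Gimap7* was last, at 64.9 ± 7.63 in WT and 116 ± 16.4 in N275D cells, above 34.1% of the genes tested. With these lengths the order differed between genotypes at 1 place. *Gimap5* at 769 ± 55.9 stood above *Gimap9* at 537 ± 17.7 in WT cells, whereas in N275D cells *Gimap9* at 636 ± 12.3 stood above *Gimap5* at 560.5 ± 18.0. In N275D cells no neighbours in the order overlapped.

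Ratios of reads between members within a library do not depend on a scaling factor per library, and their changes do not depend on gene length. The number of *Gimap9* reads for each *Gimap5* read was 0.485, 0.536 and 0.468 in the WT libraries and 0.792, 0.808 and 0.813 in the N275D libraries. The 2 genotypes were far apart on this ratio. *Gimap7* to *Gimap5* was the pair that moved most, from 0.05003, 0.0659 and 0.0497 to 0.150, 0.130 and 0.122, a log2 change of 1.29. *Gimap4* to *Gimap6* went from 3.70, 3.44 and 3.50 to 2.38, 2.31 and 2.38. Even the close copies moved apart, with *Gimap5* to *Gimap3* at 0.499, 0.489 and 0.546 in WT and 0.418, 0.393 and 0.392 in N275D libraries. Of the 28 pairs of members, 25 had ratios that did not overlap between genotypes (exact permutation p = 0.1 for each, the smallest possible), where 56.5% of all pairs of tested genes listed above 0 in every library did not. These pairs share members, and 7 of the 8 members were already apart as single genes, so the count describes the family and is no separate result. The other 3 pairs, *Gimap9* with *Gimap6*, *Gimap4* with *Gimap1* and *Gimap1* with *Gimap3*, each joined members called in the same direction.

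Summed over the family, N275D libraries held fewer GIMAP reads. The sum was 13460.3, 13196 and 13423 normalized reads in WT and 12498, 12423 and 12551 in N275D libraries, which did not overlap. The mean fell by 6.51% (exact permutation p = 0.1), from 13359.7 ± 143 to 12490.5 ± 64.5 (SD, n = 3 each). The sum of the T cell markers was lower in the same libraries. It was 17120.1 to 17711 normalized reads in WT and 15971 to 16155 in N275D libraries. *Cd4* held the largest part of that sum, at 9143 ± 331 in WT and 7591 ± 26.1 in N275D cells (SD, n = 3 each). *Cd3e* was also called lower, *Cd28* was called higher, and *Cd3d* and *Cd3g* were not called. The part of the marker sum in the fall of the family sum was not tested. The family held 0.0729% to 0.0745% of all normalized reads in WT and 0.0701% to 0.0711% in N275D libraries. Within that sum the share of *Gimap4* went from 28.5% ± 1.15 to 25.7% ± 0.502, and that of *Gimap5* from 11.2% ± 0.746 to 8.76% ± 0.276 (SD, n = 3 each). *Gimap6* went from 8.04% ± 0.302 to 10.9% ± 0.263, *Gimap9* from 5.56% ± 0.222 to 7.05% ± 0.125 and *Gimap7* from 0.617% ± 0.0793 to 1.18% ± 0.167. The share of *Gimap8* was 12.3% ± 0.241 in WT and 13.3% ± 0.320 in N275D cells, so this member, whose level overlapped, made up more of a smaller sum. The shares of these 6 members did not overlap between genotypes, and those of *Gimap1* and *Gimap3* did. These are shares of reads, not corrected for length. Per kilobase of merged exons, *Gimap9* gained most (2.35 percentage points, against 1.48 by reads), ahead of *Gimap6* (1.95, against 2.87). That order depends on the length taken for *Gimap6*, 3192 bases of merged exons where its coding transcript has 1594. *Gimap9* has 1384 bases by both measures. Shares by transcript length were not computed. *Gimap7* gained 0.941 points per kilobase and 0.561 by reads, and *Gimap8* gained 0.651 and 1.02.

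**Figure D3:**
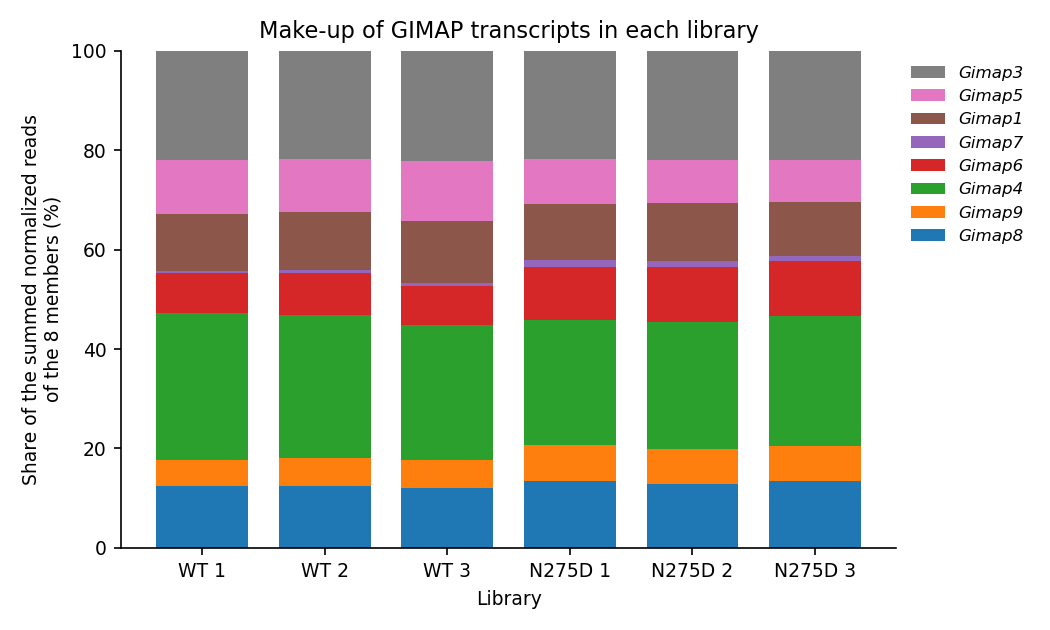
Share of the summed normalized reads of the 8 members held by each (vertical axis, percent) in the 3 WT and 3 N275D libraries (bars). The N275D bars hold a thinner band of *Gimap4* and *Gimap5* and a thicker band of *Gimap6* and *Gimap9* than the WT bars, and *Gimap4* is the largest band in all 6. The reads are not corrected for length.

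Members that rose and fell were mixed along the cluster, and the last 3 all fell. Read from the low-coordinate end, *Gimap9* (0.24) was followed by *Gimap4* (-0.25), *Gimap6* (0.34) and *Gimap7* (0.83), and then by *Gimap1* (-0.16), *Gimap5* (-0.45) and *Gimap3* (-0.10). Adjacent genes on the same strand with opposite changes included *Gimap9* and *Gimap4*, which are 5461 bases apart, and *Gimap7* and *Gimap1*, which are 14410.0 bases apart. *Gimap1* and *Gimap5*, 2401 bases apart on the plus strand, both fell. Both strands held members of each direction, since the minus-strand genes were *Gimap6*, which rose, and *Gimap3*, which fell.

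Of the 92 RefSeq genes that start within 500 kb of the cluster, 16 were rows of the table and 10 passed the minimum. Of these 10, 2 were higher and 4 lower (24.7% and 26.1% of all genes tested), and their median log2 fold change was -0.07, where the median of all genes tested was -0.00259 and that of the 8 members -0.04. The 2 nearest tested genes on the high-coordinate side fell far more than any GIMAP gene. *Tmem176b* had 575, 524 and 611 normalized reads in WT and 239, 219 and 219 in N275D libraries, which is -1.33 on the log2 scale (standard error 0.07). *Tmem176a* had 332 ± 23.3 normalized reads in WT and 114 ± 12.04 in N275D cells (SD, n = 3 each), which is -1.53 on the log2 scale (standard error 0.09). These adjacent genes encode related membrane proteins, and *Gimap3*, the member closest to them, had the smallest change of those called. *Tra2a* (-0.31), a splicing factor gene, and *Igf2bp3* (-0.28), an RNA-binding protein gene, were also lower. *Krba1* (0.23) and *Zfp775* (0.23) were higher, and *Lrrc61* (0.10), *Repin1* (-0.16), *Gpnmb* (0.17) and *Malsu1* (0.02) were not called. The calls of *Krba1*, *Zfp775* and *Igf2bp3* each depended on single libraries, and the number of neighbours called higher was 0 without N275D replicate 1, without N275D replicate 2 and under quantile normalization, and 1 without WT replicate 1, WT replicate 2 or N275D replicate 3. *Krba1* lost its call without WT replicate 1 (adjusted p = 0.0635), N275D replicate 1 (0.0817) or N275D replicate 2 (0.0574), and *Igf2bp3* without WT replicate 2 (0.0904) or N275D replicate 2 (0.0692). *Zfp775* lost it without WT replicate 2 (adjusted p = 0.194) or N275D replicate 1, 2 or 3 (0.0613, 0.147 and 0.0765), and *Repin1* gained one without WT replicate 2 (0.0358). Calls also depended on processing. Under quantile normalization *Krba1* (limma adjusted p = 0.0953) and *Zfp775* (0.191) lost theirs and *Repin1* gained one (0.0488). In eBayes without a trend *Igf2bp3* (0.0743) and *Zfp775* (0.0623) lost theirs. *Zfp775* also lost it with only a mean above 0 (0.0728) and with a replicate block (0.0543).

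**Figure D4:**
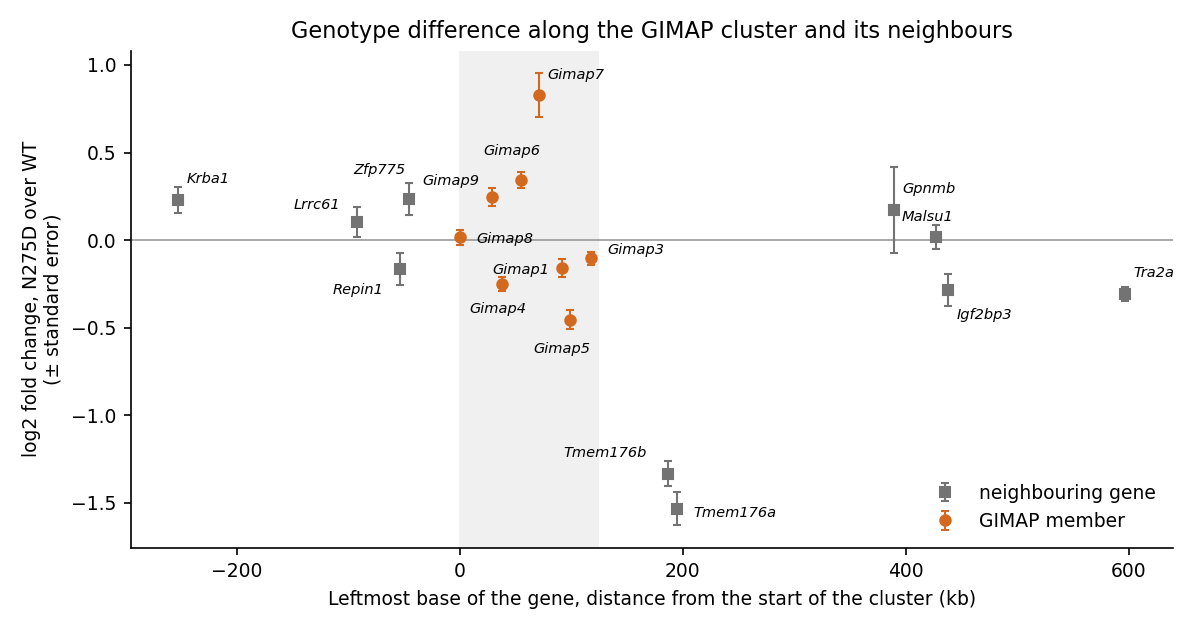
Log2 fold change of N275D over WT with its standard error (vertical axis) for the 8 members (circles, shaded span) and 10 tested neighbours (squares), by distance in kb of the leftmost base of each gene from the start of the cluster. Members above and below 0 are mixed within the shaded span, with the last 3 all below 0, and *Tmem176b* (-1.33) and *Tmem176a* (-1.53) lie beyond its right edge.

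GIMAP proteins have been linked to the BCL-2 family, to ATG8 proteins and to GSK3β, and the transcripts of these partners were taken from the same fit. Of 11 BCL-2 family genes, 4 were higher and 3 lower (24.7% and 26.1% of all genes tested), and their log2 fold changes had a median of 0.03. The largest rise was that of *Pmaip1* (0.51, from 306 ± 24.7 to 434 ± 6.06 normalized reads, SD, n = 3 each), which encodes the death-promoting NOXA. The largest fall was that of *Bax* (-0.46, from 3343 ± 203 to 2435 ± 63.9), which encodes a pore-forming executioner. Of the 5 ATG8 genes, 4 were higher and 0 lower (24.7% and 26.1% of all genes), with a median of 0.27, and 4 had an unadjusted p under 0.05. *Map1lc3a* rose most (0.44, from 87.6 ± 11.3 to 119 ± 3.04). *Gabarapl2*, which encodes the ATG8 protein that GIMAP6 binds, was the member not called, at 1362 ± 86.6 in WT and 1339 ± 95.1 in N275D cells (-0.03, adjusted p = 0.735 from limma). *Gsk3b*, whose kinase GIMAP5 restrains, was higher (0.28, from 1282 ± 17.8 to 1552 ± 22.2). Its relative *Gsk3a* and its substrate gene *Ctnnb1* (-0.17, from 6154 ± 170.3 to 5453 ± 46.4), for β-catenin, were lower, and neither was called under quantile normalization.

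The genes most like the family were found by the root mean square distance between log2 profiles over the 6 libraries, each centred on its own mean. Because rises and falls among the 8 members offset each other, their mean profile was nearly flat, and the 3 nearest genes outside the family, *Ippk* (distance 0.00955), *Kdelr2* (0.0108) and *Yars* (0.0132), were not called. *Kdelr2* and *Yars* were called higher under quantile normalization. For *Gimap7* the nearest were *Efemp2* (0.0670, log2 fold change 0.75), *Fbln5* (0.0720, 0.74) and *Klhl15* (0.0825, 0.79). *Efemp2* and *Fbln5* encode fibulins of the extracellular matrix. *Fbln5* lost its call without N275D replicate 1 and under quantile normalization (limma adjusted p = 0.0690 in each). The nearness to *Gimap7* was chosen over all genes outside the family that were tested and is a description.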

How the data were processed

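Th17 cells of WT and RORγt N275D mice were measured by RNA-seq in 3 libraries each, with groups and replicates taken from the sample labels. According to the methods, the authors trimmed reads, aligned them to mm10 with STAR and counted them with featureCounts, and DESeq2 was their test. The deposited signal values are normalized read counts of 16244 genes, and 100% of them were whole multiples of 1 factor per library within 1e-06. The authors' deposited fold changes and adjusted p-values, and their group averages, were not used. Every per-sample column of the table was used.

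Genes with a mean of at least 10 were fitted as log2(normalized reads + 1) with limma (version 3.58.1, R 4.3.3, trended prior with 12 degrees of freedom, genotype alone) and called at an adjusted p under 0.05, two-sided. Fold changes on this scale understate the change of low genes. The members, gene lists and tests were chosen with earlier results of these data known. Named genes were the members, all tested neighbours, the nearest profiles and the largest rise and fall among the calls of each list. Permutation tests used scipy (version 1.17.1). Positions are from RefSeq GRCm38.p6, which is the build mm10. Exon lengths, transcripts and coding sequences are from GENCODE M21, and alignments used Biopython (version 1.88). Protein sequences were not used here, and 1 gene of the marker lists is not reported here. Alternatives were other pseudocounts (0.1 and 10), a minimum mean of 100 or only a mean above 0, quantile or TMM scaling, an untrended prior, a replicate block and each library left out. The fit was first tested on simulated data. It called 97 of 100 genes with a true log2 change of 1 in size, and 49 of 99 with a change of 0.3. Of 11713 unchanged genes it called 6. The simulation changed 200 genes and gave every gene the same spread beyond counting. In the data, 2947 genes were called higher and 3109 lower, so the shares called may differ from those simulated. Changes of 0.3 or less can still be missed.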

Additional observations from a re-analysis of the deposited data

How the results depend on the processing

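The 3 members called higher were the same in number under all 14 alternatives, and *Gimap4*, *Gimap5*, *Gimap6*, *Gimap7* and *Gimap9* kept their direction and call in each. The number called lower, 4 as reported, was 2 under quantile normalization and 2 in eBayes without a trend, and 2 to 4 when 1 library was left out. The cause was not tested. *Gimap7* ranged from 0.69 to 0.92 and *Gimap8* from 0.00466 to 0.0682. Members whose libraries did not overlap numbered 7 under TMM scaling and 5 under quantile normalization. With the replicate number as a block, *Gimap3* was not called (-0.10, adjusted p = 0.0735), 3 members were called lower, and 2805 genes were higher and 2922 lower. Libraries with the same number did not deviate together (correlations -0.045, 0.041 and -0.083), so the pairing was not used. The sign of *Gpnmb* reversed under quantile normalization (-0.0456), as did that of *Malsu1* (-0.0474), which also ranged from -0.00377 to 0.0507 when 1 library was left out. Per kilobase of merged exons, the share of *Gimap3* in the family differed by 0.0973 percentage points, against -0.112 by reads, with overlap in both. On that scale the gains moved to 2.35 for *Gimap9*, 1.95 for *Gimap6*, 0.941 for *Gimap7* and 0.651 for *Gimap8*. Over 27 other named genes, 349 of 375 alternative values kept direction and call. Count models (edgeR, DESeq2) were planned and not run. In 4 libraries the factor lay too near 1 for recovered reads to be used as counts by the criterion set. The read numbers given here are still the normalized values divided by that factor, of which 100% were whole. Groups of 3 libraries limit the precision, and at 73 to 171 reads a library *Gimap7* was the member limited most by depth.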

Other observations

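Interferon-inducible GTPases, a separate family that includes guanylate-binding proteins and immunity-related GTPases, also held members of both directions. Of 14 genes tested, 6 were higher and 1 lower in N275D than in WT Th17 cells by limma (24.7% and 26.1% of all genes tested), with a median log2 fold change of 0.15. *Gbp7* rose most (0.65, from 120.2 ± 16.4 to 188 ± 8.04 normalized reads, SD, n = 3 each), and *Tgtp1* fell (-0.53, from 198 ± 15.8 to 137 ± 15.5). The number higher was 3 without N275D replicate 1, and the number lower was 2 without WT replicate 3.

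*Gimap* transcripts are high in resting T cells, and genes of resting and of activated T cells were mixed in direction too. Of 15 resting T cell genes, 8 were higher and 4 lower (24.7% and 26.1% of all genes), with a median of 0.31. *Il7r*, the receptor chain for the survival cytokine IL-7, rose most (1.34, from 592 ± 31.8 to 1502 ± 65.4 normalized reads, SD, n = 3 each), and the antiproliferative gene *Btg2* fell most (-0.81, from 1702 ± 109 to 973 ± 29.9). Of 14 activation genes, 6 were higher and 7 lower against the same background, with a median of -0.09. *Tnfrsf9*, which encodes the costimulatory receptor 4-1BB, rose most (1.93, from 673 ± 45.7 to 2568 ± 82.8), and the T cell receptor response gene *Egr3* fell most (-1.55, from 1631 ± 90.3 to 557 ± 10.4).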
